A study of Mus musculus with 4 samples.

Results

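Claudins and connexins are the protein families that build tight junctions and gap junctions, and 43 of their genes were followed here in the skull vault (calvaria) of the mouse embryo. The 43 genes are the protein-coding genes whose GENCODE symbol is Cldn followed by digits (23 claudin genes) or Gja to Gje followed by digits (20 connexin genes), among 55487 gene IDs in the deposited table. The rule leaves out 9 Cldn34-type genes, whose symbols end in a letter or a letter and a digit. Poly(A) RNA was sequenced at E14.5 (embryonic day) from the frontal bone (2 libraries) and from the parietal and interparietal bones (2 libraries, each holding both bones and called PI below). No treatment, mutation, strain, sex or litter is named in the labels. Nor do they tell whether the 2 libraries of a bone are from different embryos, and the p-values reflect the spread between libraries, which could be technical.

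Claudins are membrane proteins that seal the space between neighbouring cells, or line it with pores for ions and water, and each barrier tissue uses its own set of them. Connexins assemble into channels that join the interiors of neighbouring cells and pass ions and small metabolites. In the head of the embryo such junctions hold together the arachnoid layer of the meninges, the coverings of the brain, the endothelium of brain vessels, the epidermis and oral epithelium, the choroid plexus and the inner ear. Osteoblasts, the bone-forming cells, are coupled mainly by the connexin that Gja1 encodes.

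The libraries were of bone together with its surroundings. Total counts per library lay between 24069177 and 35555013. Of 12 osteoblast markers all passed the filter on low counts, and their summed level was 2606 and 2618 CPM (counts scaled to a common library size, edgeR's standard unit) in the frontal and 3652 and 3651 CPM in the PI libraries. Markers of cerebral cortex were at 540.0 and 531 against 238 and 244 CPM, and 8 of 10 were higher in frontal libraries. The 2 not called, Tubb3 and Fabp7, were at 167 and 173 CPM and at 47.3 and 48.2 CPM in PI libraries. The sums thus understate the difference, and the median log2 fold change of the list was 4.73. Markers of skeletal muscle were at 1649 and 1573 against 2193 and 2172 CPM with 9 of 11 lower. Without PI library 1 only 3 of the 11 muscle markers were lower, and 4 without PI library 2 or with that pair summed. Of 10 midbrain and hindbrain markers 5 were lower, and of 6 tested olfactory markers 3 were higher and 1 lower. DESeq2 called 2 olfactory markers higher and 0 lower, and a filter of at least 1 CPM in 2 libraries gave 2 higher and 1 lower. Both olfactory counts also fell without either PI library and with that pair summed, and the higher count fell without frontal library 2. In such bulk samples fewer cells of a type and less RNA per cell cannot be told apart.

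Of the 43 genes, 39 had a count in some library and 30 passed the filter (17 claudin and 13 connexin genes). Between the frontal and the PI libraries 5 of the 30 were called: Cldn5 was higher in frontal libraries, and Cldn11, Gjb2, Gjb6 and Cldn23 were lower. A call means a Benjamini-Hochberg adjusted p under 0.05, over all genes tested, in edgeR's quasi-likelihood test, and every adjusted p below is from that test. That is 16.7% of the members tested, beside 12.7% of all 20947 genes tested, of which 6.25% were called higher and 6.44% lower. The share of members called is thus near the background, and it is the identity of the 5 genes that is described below. With 1 library left out the members called numbered 8 without frontal library 1 (background 24.2%), 11 without frontal library 2 (32.6%), 3 without PI library 1 (3.89%) and 3 without PI library 2 (3.84%). With the PI libraries summed as 1 sample 2 members were called, Cldn11 and Gjb2 (background 3.39%).

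Cldn11, Gjb2 and Gjb6, which moved together, and Cldn5, which moved the other way, are the members the results turn on, so the 250 bases before their transcription start are shown. The sequences are RefSeq's on GRCm38.p6, 5′ to 3′ on the strand of the gene, and 31 of the 43 members had an entry in that table. Capitals mark a CCAAT box (CCAAT, or ATTGG on the other strand) or a GC box (GGGCGG, or CCGCCC on the other strand), which did not overlap each other in these windows. The Cldn11 window is chr3:31149670-31149919 (plus strand), that of Gjb2 chr14:57104703-57104952 (minus), that of Gjb6 chr14:57133612-57133861 (minus) and that of Cldn5 chr16:18776597-18776846 (plus).
Cldn11: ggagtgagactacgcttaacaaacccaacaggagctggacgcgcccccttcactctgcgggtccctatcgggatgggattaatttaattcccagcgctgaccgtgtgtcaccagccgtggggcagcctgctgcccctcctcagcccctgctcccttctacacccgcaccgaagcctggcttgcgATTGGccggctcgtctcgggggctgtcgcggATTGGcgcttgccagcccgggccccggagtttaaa
Gjb2: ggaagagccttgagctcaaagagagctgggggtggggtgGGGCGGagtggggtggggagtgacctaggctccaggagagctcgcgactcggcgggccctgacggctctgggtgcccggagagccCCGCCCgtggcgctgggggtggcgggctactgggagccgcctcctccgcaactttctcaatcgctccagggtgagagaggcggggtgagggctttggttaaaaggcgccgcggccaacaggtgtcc
Gjb6: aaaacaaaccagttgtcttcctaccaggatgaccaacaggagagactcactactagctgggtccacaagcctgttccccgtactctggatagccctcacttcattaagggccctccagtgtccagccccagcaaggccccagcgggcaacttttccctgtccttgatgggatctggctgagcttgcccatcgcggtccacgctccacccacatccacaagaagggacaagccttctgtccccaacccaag
Cldn5: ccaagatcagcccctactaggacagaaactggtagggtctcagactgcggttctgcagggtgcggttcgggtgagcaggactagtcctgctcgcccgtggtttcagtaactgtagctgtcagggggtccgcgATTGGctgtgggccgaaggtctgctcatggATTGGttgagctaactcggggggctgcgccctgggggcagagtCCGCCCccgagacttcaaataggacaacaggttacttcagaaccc

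Cldn11 and Cldn5, whose levels differed in opposite directions, each held 2 CCAAT boxes on the other strand. Those of Cldn11 began 66 and 35 bases before the start and those of Cldn5 118 and 88 bases before it. Gjb2 held 2 GC boxes, Cldn5 held 1, and Gjb6 held neither motif. Of all 32851 promoter windows of this length 33.8% held a CCAAT box and 32.7% a GC box. A TATA box (TATAAA), an ETS core (CCGGAA), a forkhead core (TAAACA), a SOX core (ACAAAG) and the E box CAGCTG, searched on both strands, were in none of the 4 windows, and these letters are in 12.4%, 12.0%, 12.0%, 16.5% and 13.0% of all windows in turn. The motifs were chosen after the sequences were seen, and a match is only a description of the letters. The windows held 63.6% (Cldn11), 69.2% (Gjb2), 56.8% (Gjb6) and 59.6% (Cldn5) G or C, beside a median of 52.4% over all windows.

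The junction genes of the meninges include Cldn11 and Gjb2, the only members called in all 12 alternative analyses. Members were assigned to a barrier by the tissue each is best known for, and many serve several. Of the 4 members assigned to the meninges 3 were lower in frontal libraries and 1 was not called. Their summed level was 342 and 329 CPM in the frontal and 500.2 and 506 CPM in the PI libraries.

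Cldn11 encodes the claudin of the arachnoid barrier, which also forms the tight junctions of myelin and of Sertoli cells (ENSMUSG00000037625, GRCm38 chromosome 3, 31149920 to 31164324). It was at 50.4 and 57.4 CPM in frontal libraries 1 and 2 and at 124 and 125 CPM in PI libraries 1 and 2. Both frontal libraries lay far below both others, and the gap was many times the distance between libraries of a group. The level was 2.31-fold lower in frontal libraries (log2 fold change −1.21 ± 0.09 SE, edgeR adjusted p = 3.99e-05). It was called in all 12 alternative analyses, with log2 fold changes between −1.32 and −1.12.

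Gjb2, which encodes a connexin of the leptomeninges, the inner ear and the epidermis (ENSMUSG00000046352, chromosome 14, 57098600 to 57104702), was at 40.9 and 41.0 CPM in the frontal libraries and at 77.0 and 77.7 CPM in the PI libraries. The libraries of each group nearly coincided and the groups did not overlap. The log2 fold change was −0.92 ± 0.09 (1.89-fold lower, edgeR adjusted p = 0.000212), and the gene was called in all 12 alternatives. Gjb6, which encodes the connexin most often paired with that of Gjb2, lies 18.6 kb away in the same orientation (ENSMUSG00000040055, chromosome 14, 57123303 to 57133611). It was at 25.8 and 34.3 CPM in frontal and 49.2 and 45.7 CPM in PI libraries, again without overlap but with more spread between the frontal libraries. Its log2 fold change was −0.66 ± 0.13 (1.58-fold lower, edgeR adjusted p = 0.0105). The call of Gjb6 was lost without PI library 1 (−0.60, adjusted p = 0.076) and with that pair summed (−0.66, adjusted p = 0.054).

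Gja1, the connexin gene with the most counts, is expressed by meningeal cells, osteoblasts, neural progenitors and much of the mesenchyme. It was at 225 and 196 CPM in frontal and 249.8 and 257 CPM in PI libraries, so that both frontal libraries lay below both others by less than their own distance from each other. It was not called (log2 fold change −0.27 ± 0.09, edgeR adjusted p = 0.067). It was called lower in 5 of the 12 alternatives, namely in DESeq2, with no scaling beyond the total count, with no filter, without frontal library 1 (−0.37) and without frontal library 2 (−0.18).

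**Figure D1:**
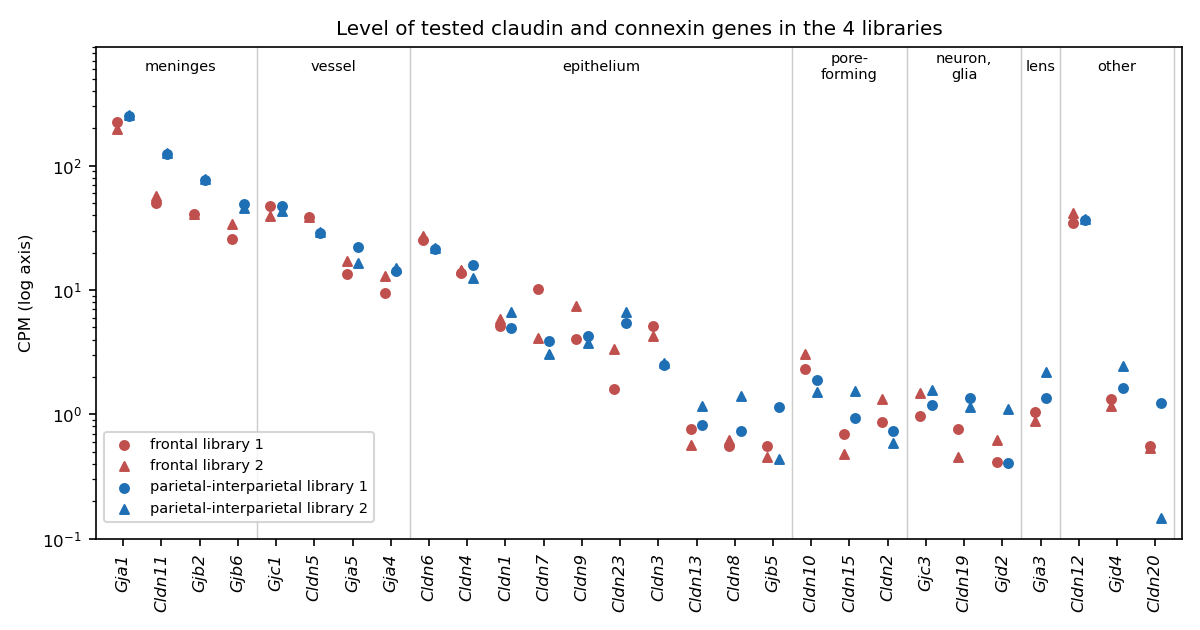
Level in CPM (log axis) of 28 of the 30 tested claudin and connexin genes, grouped by the barrier each is best known for; circles are library 1 and triangles library 2 of each group, frontal in red and PI in blue. The blue symbols of Cldn11, at 124 and 125 CPM, stand clear of the red ones at 50.4 and 57.4 CPM, while those of Cldn12 and Gjc1 overlap.

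Markers of the meninges moved with these genes. Of 14 meningeal markers 8 were lower in frontal libraries, 0 higher and 6 not called, and their summed level was 678 and 722 CPM in frontal and 1081 and 1070 CPM in PI libraries. No marker of the list was at 0. The median log2 fold change of the list was −0.65, beside −0.79 for the 4 members of the meningeal class and 0.0060 for all genes tested. Ptgds, which encodes a prostaglandin D synthase of the arachnoid, had −1.47 ± 0.10 and Slc6a13, a GABA and taurine transporter of the leptomeninges, −1.17 ± 0.11 log2 units. Without PI library 1 and with the PI libraries summed 5 of the 14 markers were called lower, and 6 to 12 without each of the other libraries, with 0 higher in all of these. Other genes of the list moved little: Cxcl12 had −0.07 ± 0.08, Tbx18 −0.17 ± 0.16 and Aldh1a2 −0.22 ± 0.09 log2 units, none called, and these 3 were named after their values were seen. Markers of the inner ear, where Gjb2 and Gjb6 are also expressed, were lower in 7 of 10 (summed level 105 and 96.5 against 186 and 182 CPM, none at 0). The part of either tissue in the Cldn11, Gjb2 and Gjb6 differences was not tested.

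The vessel genes did not share one direction. Of 4 members assigned to vessels Cldn5 was higher in frontal libraries and 3 connexin genes were not called, and the summed level of the class was 109 and 108 against 113 and 104 CPM. Cldn5 encodes the main claudin of brain endothelium and of the blood-brain barrier (ENSMUSG00000041378, chromosome 16, 18776847 to 18778262). It was at 38.7 and 39.0 CPM in frontal and 28.8 and 29.4 CPM in PI libraries, with libraries of a group close together and no overlap. The log2 fold change was 0.42 ± 0.10 (1.33-fold higher, edgeR adjusted p = 0.0232). The call was lost without PI library 1 (0.40, adjusted p = 0.311), without PI library 2 (0.43, adjusted p = 0.278) and with that pair summed (0.41, adjusted p = 0.317), while the fold change moved little.

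The arterial connexin genes lay on the other side of 0, without a call. Gja4, a connexin of arterial endothelium, was at 9.55 and 13.0 CPM in frontal and 14.3 and 15.1 CPM in PI libraries (log2 fold change −0.38 ± 0.17, edgeR adjusted p = 0.179). Gja5, the other arterial connexin, was at 13.4 and 17.1 against 22.4 and 16.3 CPM, with overlapping groups (−0.34 ± 0.18, adjusted p = 0.255). Both were called lower only without frontal library 2 among the 12 alternatives, at −0.63 and −0.53. Gjc1, a connexin of vascular smooth muscle, early heart and bone cells, was at 47.3 and 39.4 against 47.2 and 43.0 CPM (−0.06 ± 0.11, adjusted p = 0.796).

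Of 14 endothelial markers 2 were higher, 1 lower and 11 not called, with a median log2 fold change of −0.16 and a summed level of 583 and 532 CPM in frontal and 659 and 646 CPM in PI libraries. None was at 0. The higher genes were Mfsd2a and Slco1c1. Mfsd2a, the lysolipid transporter of brain endothelium, had 0.55 ± 0.15 log2 units (edgeR adjusted p = 0.0386). Slco1c1, a thyroid hormone transporter of brain endothelium and other cells, had 0.70 ± 0.20 (adjusted p = 0.0434). Slco1c1 was chosen after its value was seen. Both calls were lost in 5 of 12 alternatives: in DESeq2, with no scaling beyond the total count, without either PI library and with that pair summed. Their log2 fold changes stayed between 0.49 and 0.76 throughout. Of 8 choroid plexus markers 4 were also higher in frontal libraries, 0 lower and 4 not called. Their summed level was 884 and 928 against 120 and 121 CPM, of which Ttr alone made up 747 and 777 against 29.5 and 25.7 CPM. The part of that tissue in the Slco1c1 value was not tested. The lower gene was Cdh5, the cadherin of all endothelium, at 78.7 and 77.6 against 123 and 118 CPM (−0.62 ± 0.08, adjusted p = 0.00107), called in all 12 alternatives. Without either frontal library 3 of the 14 were higher and 5 lower, and 2 were lower with no filter, with no scaling and with a replicate block. Of 9 markers of mural cells, which wrap vessels, 2 were lower (Notch3 and Rgs5), 0 higher and 7 not called. Both calls were lost without either PI library and with that pair summed. DESeq2 and the totals without ribosomal and mitochondrial RNA gave 1 lower, and leaving out frontal library 1 gave 5.

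**Figure D2:**
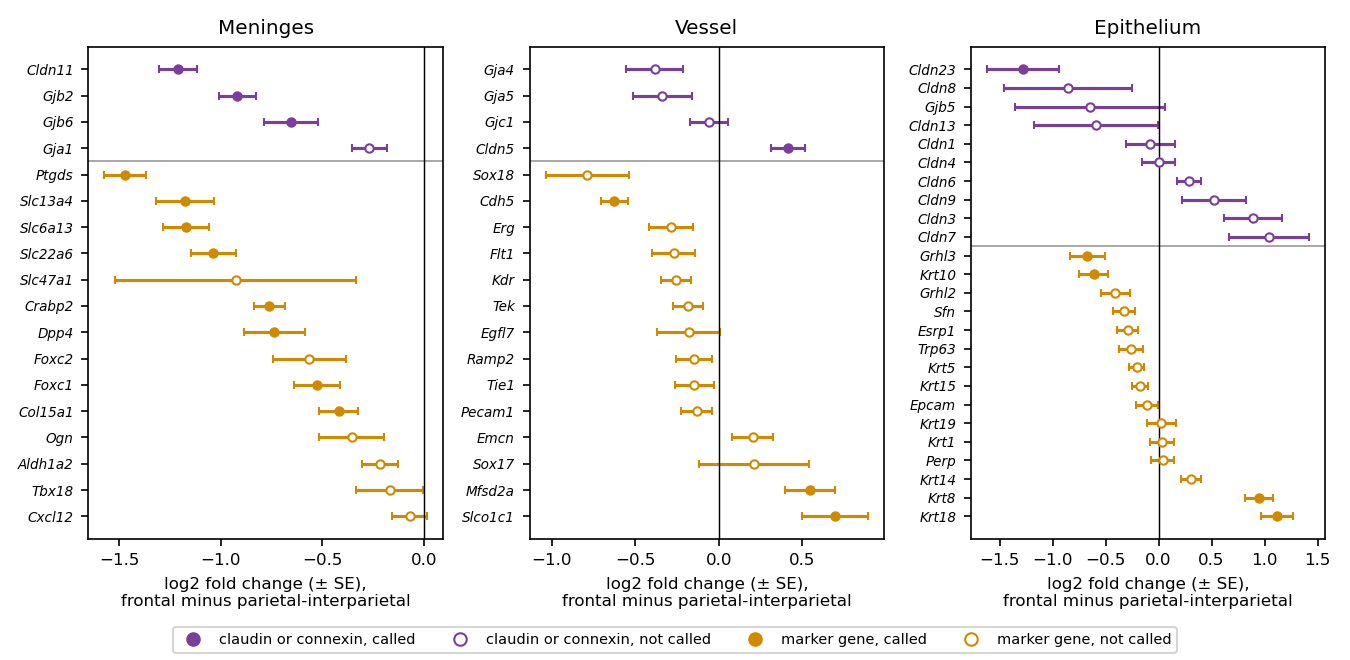
Log2 fold change (frontal minus PI, ± SE) of the claudin and connexin genes of 3 barriers (purple, above the line; 1 epithelial member is not shown) and of marker genes of the same tissue (orange, below it); filled symbols were called and open ones were not. All 3 called meningeal members and all 8 called meningeal markers lie left of 0, whereas Cldn5, Mfsd2a and Slco1c1 lie right of 0 in the vessel panel and Cdh5 left of it.

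Of 11 tested members assigned to epithelia 1 was lower in frontal libraries, 0 were higher and 10 were not called. The lower gene was Cldn23, a claudin of epidermis and gut (ENSMUSG00000055976, chromosome 8, 35824712 to 35826559). It was at 1.60 and 3.35 CPM in frontal and 5.44 and 6.70 CPM in PI libraries, from 46 and 118 against 133 and 182 counts. The groups did not overlap, but the frontal libraries differed from each other nearly as much as frontal library 2 did from PI library 1. The log2 fold change was −1.28 ± 0.34 (2.43-fold lower, edgeR adjusted p = 0.033). Its size rested on the frontal library used, at −0.86 without frontal library 1 and −1.93 without frontal library 2. The call was lost without PI library 2 (−1.13, adjusted p = 0.161) and with that pair summed (−1.30, adjusted p = 0.0796).

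Cldn3, Cldn6, Cldn7 and Cldn9 had their highest value in a frontal library but were not called. Cldn3, a barrier-forming claudin of simple epithelia, was at 5.14 and 4.28 CPM in frontal and 2.49 and 2.58 CPM in PI libraries (log2 fold change 0.89 ± 0.27, edgeR adjusted p = 0.0579). Cldn7, a claudin of the basolateral membrane, was at 10.2 and 4.11 against 3.88 and 3.05 CPM (1.04 ± 0.38, adjusted p = 0.103), and frontal library 1 alone carried most of that difference, which was 0.25 without it. Both were called higher with no filter and without frontal library 2 (1.01 for Cldn3 and 1.56 for Cldn7). Cldn6, a claudin of embryonic epithelia, was at 25.2 and 27.3 against 21.4 and 21.7 CPM (0.28 ± 0.12, adjusted p = 0.142), and its neighbour Cldn9 at 4.03 and 7.43 against 4.25 and 3.75 CPM (0.53 ± 0.30, adjusted p = 0.301). Without frontal library 1 both of these were called higher, at 0.34 and 0.90.

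Cldn1, on which the water barrier of the epidermis depends, was at 5.17 and 5.84 CPM in frontal and 4.99 and 6.66 CPM in PI libraries (−0.08 ± 0.23, edgeR adjusted p = 0.869). Cldn4, a claudin of many simple epithelia, was at 13.8 and 14.52 against 16.0 and 12.4 CPM, a log2 fold change of 0.00039 ± 0.16. The groups overlapped for both. The epidermal connexin gene Gjb5 was at 0.442 to 1.14 CPM over the 4 libraries, with a log2 fold change of −0.64 ± 0.71. Cldn8 and Cldn13 were at most 1.40 CPM in every library, at −0.85 ± 0.60 and −0.59 ± 0.58.

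Epithelial markers were likewise split. Of 15 markers 2 were higher, 2 lower and 11 not called, with a summed level of 935 and 893 CPM in frontal and 980 and 969 CPM in PI libraries, and none was at 0. The keratins of simple epithelia Krt8 and Krt18 were higher, at 0.95 ± 0.13 and 1.12 ± 0.15 log2 units (edgeR adjusted p = 0.00143 and 0.00134). Krt10, a keratin of the upper epidermis, and Grhl3, a factor of epidermal differentiation, were lower at −0.61 ± 0.14 and −0.67 ± 0.16 (adjusted p = 0.0163 and 0.0242). Without either PI library and with that pair summed 2 markers were called higher and 0 lower. Without either frontal library 3 were higher and 7 lower, and with no scaling beyond the total count 2 were higher and 4 lower. Krt10 and Grhl3 were named after their values were seen, to complete the count. The part of these cells in the values of Cldn3, Cldn7 and Cldn23 was not tested. Of 8 choroid plexus markers 4 were higher in frontal libraries and 0 lower. The part of that epithelium in the values of Cldn3, Krt8 and Krt18 was not tested either.

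**Figure D3:**
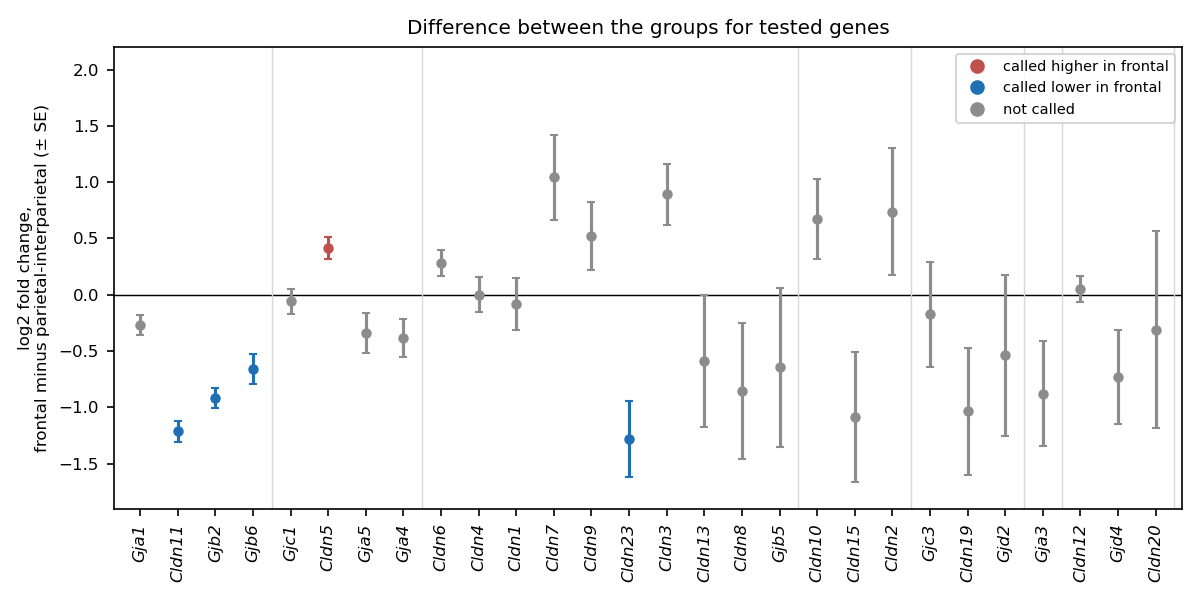
Log2 fold change (frontal minus PI) of 28 of the 30 tested genes in the order of the plot of levels, with bars for ± 1 SE; red was called higher, blue called lower and grey not called. Bars are short for abundant genes such as Gja1 (0.09) and long for Cldn20 (0.87), which had 4 to 30 counts per library.

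The 3 pore-forming claudins that were tested had 16 to 108 counts per library, and none was called. Cldn10, which forms ion pores in kidney and glands, was at 2.33 and 3.06 CPM in frontal and 1.88 and 1.51 CPM in PI libraries (0.67 ± 0.36, edgeR adjusted p = 0.258). Cldn2, the cation and water pore of choroid plexus and proximal tubule, was at 0.868 and 1.33 against 0.736 and 0.589 CPM (0.74 ± 0.56, adjusted p = 0.446). Choroid plexus markers differed far more: 4 of 8 were higher and 0 lower, at a summed level of 884 and 928 against 120 and 121 CPM, of which Ttr, the transthyretin gene, made up 747 and 777 against 29.5 and 25.7 CPM. Cldn15 was at 0.482 to 1.55 CPM with a log2 fold change of −1.08 ± 0.58. Cldn16 and Cldn17 had 0 counts in all 4 libraries, which allows levels of up to 0.0851 to 0.123 CPM, the worth of 3 counts.

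Members of neurons, glia, lens and muscle were also low, and none was called. Cldn19, a claudin of Schwann cells and kidney, was at 0.764 and 0.454 CPM in frontal and 1.35 and 1.14 CPM in PI libraries (−1.04 ± 0.57, edgeR adjusted p = 0.276). Of 10 Schwann and crest glia markers 5 were lower and 0 higher, at 289.7 and 327 against 431 and 431 CPM summed (Fabp7 is also in the cortex list). Those lower numbered 1 without PI library 1 and with that pair summed, 2 without PI library 2, and 7 and 6 without frontal libraries 1 and 2. The glial connexin gene Gjc3 was at 0.972 to 1.58 CPM, and Gjd2, the connexin of electrical synapses, at 0.409 to 1.10 CPM, with overlapping groups for both. Gja3, a connexin of the lens, was at 1.04 and 0.879 against 1.35 and 2.17 CPM (−0.88 ± 0.47, adjusted p = 0.261), and 1 of 6 tested lens markers, Cryab, which muscle also expresses, was lower. Gjd4, a connexin of muscle progenitors, was at 1.32 and 1.16 against 1.63 and 2.47 CPM (−0.73 ± 0.42, adjusted p = 0.298).

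Cldn12, which is expressed broadly, was at 34.8 and 41.3 CPM in frontal and 36.3 and 37.2 CPM in PI libraries, with overlapping groups (0.05 ± 0.11, edgeR adjusted p = 0.824). Cldn20 had 16, 19, 30 and 4 counts in the 4 libraries and a log2 fold change of −0.31 ± 0.87. Over the 30 tested members the groups did not overlap for 18, in 6 with frontal above and in 12 with frontal below, which is near the background: groups did not overlap for 57.3% of all genes tested, with frontal above for 28.9% and below for 28.4%. The 12 with frontal below were 6 claudin and 6 connexin genes, and the 6 with frontal above were all claudin genes. The median log2 fold change was 0.00039 over the 17 claudin genes and −0.54 over the 13 connexin genes, beside 0.0060 over all genes tested. Of these 13 connexin genes 7 averaged under 3 CPM in both groups, and none of those 7 was called.

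Per length of transcript, as RPKM (CPM per kilobase of annotated exon), 2 genes made up 51.2% to 66.8% of each family's summed level. Cldn11 had 27.0 and 30.7 RPKM in the frontal and 66.4 and 67.1 RPKM in the PI libraries, and Cldn5 27.3 and 27.5 against 20.3 and 20.8 RPKM. In frontal libraries the levels of these genes did not differ beyond the spread of Cldn11, while in PI libraries Cldn11 was far above Cldn5. As a share of summed claudin RPKM, Cldn11 made up 26.4% and 28.1% in frontal and 50.1% and 51.0% in PI libraries, and Cldn5 26.7% and 25.2% against 15.3% and 15.8%. Cldn6 followed at 12.4 to 15.9 RPKM, then Cldn12 at 8.22 to 9.76 RPKM and Cldn4 at 6.83 to 8.80 RPKM, and these last 2 overlapped. The summed claudin level was 102 and 109 against 133 and 131 RPKM.

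Among connexin genes Gja1 led in frontal libraries at 21.9 and 19.1 RPKM, above Gjb2 at 17.0 and 17.0 RPKM. In PI libraries Gjb2 led at 32.0 and 32.3 RPKM, above Gja1 at 24.4 and 25.1 RPKM. Gjb6 followed at 9.66 and 12.8 against 18.4 and 17.1 RPKM, then Gjc1 at 7.87 to 9.45 RPKM and Gja4 at 5.67 to 8.96 RPKM, which overlapped. The 4 genes Gjb2, Gja1, Gjb6 and Gjc1 made up 80.6% to 84.1% of the family's summed RPKM in every library. Exon lengths are of all annotated exons of a gene, so a gene that uses a short isoform is understated on this scale. Gja1 was divided by 10257 bases from 8 transcripts and Gjb2 by 2406 bases from 1. The order of Gjb2 above Gja1 in PI libraries rests on these lengths. In CPM Gja1 was above Gjb2 in every library, at 249.8 and 257 against 77.0 and 77.7 CPM in PI libraries. The ranking is a description, with no test.

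**Figure D4:**
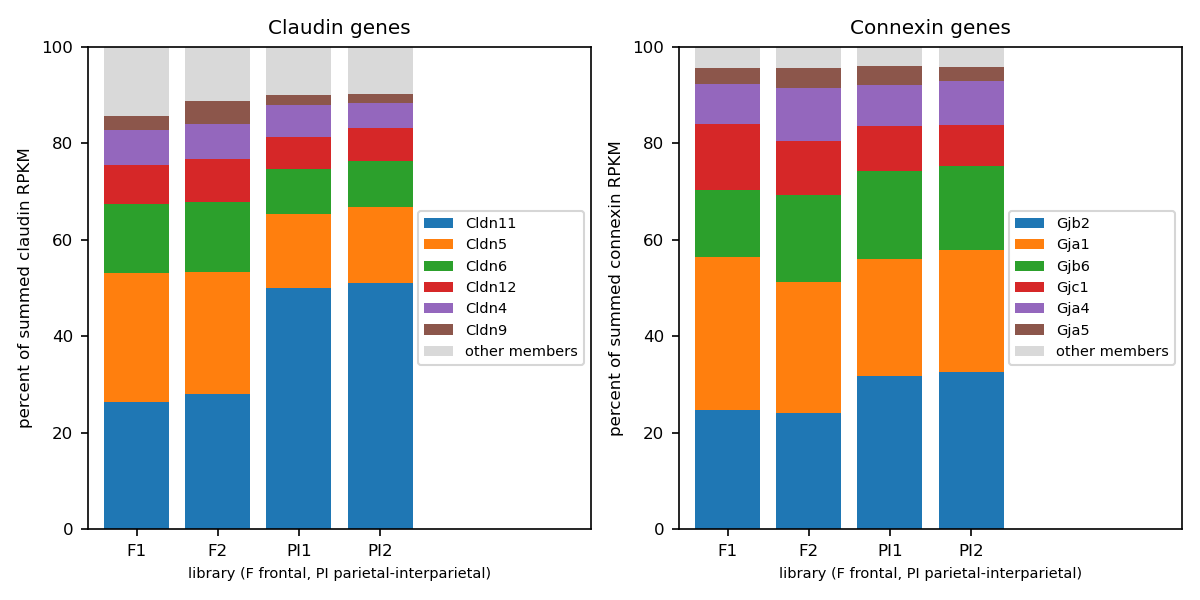
Share of each gene in the summed RPKM of the claudin genes (left) and connexin genes (right) in each library, F for frontal and PI for PI; grey holds all members beyond the first 6 by mean RPKM. The Cldn11 share is 26.4% and 28.1% in the frontal bars and 50.1% and 51.0% in the others, and the Gjb2 share 24.6% and 24.1% against 31.8% and 32.6%.

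Several members are neighbours in the genome, a feature that the rule did not use. Gja3, Gjb2 and Gjb6 lie within a stretch of chromosome 14, with 40.5 kb between the first pair and 18.6 kb between the second, and had log2 fold changes of −0.88, −0.92 and −0.66, of which that of Gja3 was not called. Cldn6 and Cldn9, 137 bases apart on opposite strands of chromosome 17, had 0.28 and 0.53, and Cldn4 and Cldn3, 39.3 kb apart on chromosome 5, had 0.00039 and 0.89. Levels within a neighbourhood differed widely: Gjb2 was at 40.9 to 77.7 CPM and Gja3 at 0.879 to 2.17 CPM.

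The 13 members that did not pass the filter had few reads. Cldn16, Cldn17, Cldn18 and Cldn22 had 0 counts in all libraries. All 995 exon bases of Cldn22 lie inside exons of Wwc2 on the opposite strand, and Cldn22 shares an identical stretch of 472 bases with Cldn24, so the 0 of Cldn22 cannot be read as its level. Cldn24, with 663 exon bases, had 0 and 3 counts in frontal and 8 and 8 in PI libraries. The shared stretch limits these counts too, as it is not known how reads that match both genes were counted. Gja6 had 2 and 3 counts against 5 and 7. Gjb1, a connexin of Schwann cells and liver, had 22, 2, 0 and 8 counts, and frontal library 1 alone held most of them. Cldn14, Gja10, Gjd3 and Gje1 had at most 10 counts in any library. Apart from Cldn22 and Cldn24, no other pair of members shared an identical transcript stretch longer than 42 bases.

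Proteins that work with claudins in the tight junction were measured from a list of 25 genes, all tested. Of these 2 were higher in frontal libraries, 5 lower and 18 not called, with a median log2 fold change of 0.06. Amotl1, which encodes an angiomotin-like protein, was at 176 and 198 CPM in frontal and 256 and 252 CPM in PI libraries (−0.44 ± 0.08, edgeR adjusted p = 0.00735). Its relative Amotl2 was lower at −0.43 ± 0.09, and Magi1, a scaffold of the junction, was higher at 0.52 ± 0.09. These 3 calls were lost without either PI library and with that pair summed, and each of those settings left 0 of the 25 called higher and 1 lower. Without either frontal library 8 were lower, and DESeq2 and the fit with no scaling beyond the total count called 1 higher. Ildr2 and F11r were also lower and Tjp3 was also higher, and these 3 were named after their values were seen. Tjp1, the scaffold of most tight junctions, was at 114 and 109 against 133 and 131 CPM (−0.24 ± 0.08, adjusted p = 0.0826), and was called lower without frontal library 1, without frontal library 2 and with no scaling beyond the total count. Ocln, which encodes occludin, was at 7.08 and 7.89 against 6.42 and 6.48 CPM (0.22 ± 0.19, adjusted p = 0.517).

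Genes of cadherin junctions, which lie beside tight junctions, were lower in 8 of 15, higher in 0 and not called in 7, with a median log2 fold change of −0.30. Nectin4, a nectin of epidermis, was at 12.6 and 15.5 CPM in frontal and 29.9 and 27.5 CPM in PI libraries (−1.03 ± 0.14, edgeR adjusted p = 0.00116). Ctnnd1, which encodes p120-catenin, and Nectin1 had −0.72 ± 0.09 and −0.69 ± 0.10, and Cdh5, which is also among the endothelial markers, −0.62. These 4 were called in all 12 alternatives. Without PI library 1 and with that pair summed 4 of the 15 were called lower, 5 without PI library 2, and 10 and 9 without frontal libraries 1 and 2, and 3 and 2 were called higher without frontal library 1 and without frontal library 2.

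Pannexins form channels in the membrane of single cells and are built like connexins. Panx1 was at 56.2 and 57.3 CPM in frontal and 37.2 and 47.3 CPM in PI libraries (0.42 ± 0.12, edgeR adjusted p = 0.0423). The PI libraries differed from each other by more than the nearer of them did from the frontal ones, and the call was lost without either of them (0.26 without library 1 and 0.61 without library 2), with that pair summed and with no scaling beyond the total count. Panx3, the pannexin of osteoblasts and cartilage, was at 4.24 and 5.33 against 2.57 and 3.13 CPM (0.75 ± 0.27, adjusted p = 0.106). Leaving out frontal library 1 gave it a call, at 0.90. Panx2 was at 2.04 to 2.92 CPM and was not called.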

How the data were processed

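The deposited table held 1 whole-number count per gene and library, made by the authors and not normalized. The submitters' processing notes name HISAT2 2.1.0 and featureCounts 2.0.1, with Trim Galore 0.6.7 and the build GRCm38. Strand setting, annotation release and multi-match handling are not given in the sources here. Symbols and exon lengths came from GENCODE M21 (GRCm38), which matched 55227 of 55487 IDs.

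The comparison was frontal minus parietal-interparietal, with edgeR 4.0.16 in R 4.3.3: filterByExpr (minimum count 10), TMM scaling, the quasi-likelihood test with group as the only term (2 residual degrees of freedom), two-sided, Benjamini-Hochberg adjustment over 20947 genes, call under 0.05. SE is the absolute log2 fold change over the square root of F. CPM use TMM-scaled totals. The procedure was tested on simulated data. Each member was followed through 12 alternatives, among them DESeq2 1.42.0. Figures used matplotlib 3.10.9. Members, lists and their assignment to barriers were chosen with earlier results of these data known. Named were all members called, 9 set members (Cldn1, Cldn5, Cldn11, Gja1, Gjb2, Gjb6, Gja4, Gja5, Gjc1), up to 4 partner genes per list with the smallest p, Ocln, Tjp1 and Panx3, and up to 2 markers per list. PI stands for the parietal-interparietal group. Other genes were chosen after their values were seen. Some genes counted here are not reported by name.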

Additional observations from a re-analysis of the deposited data

How the results depend on the processing

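With 2 libraries per group a fit without 1 library takes its spread from the pair left whole, and the lone library is assumed to vary like that pair. Over all genes 2657 were called, with a range of 865 to 7279 over the fits without 1 library, and 793 with the PI libraries summed. Junction genes called higher numbered 1 (Cldn5), with a range of 0 to 3 without 1 library, 3 with no filter (Cldn3, Cldn5, Cldn7) and 0 with that pair summed. Those called lower numbered 4, with a range of 3 to 8 without 1 library and 2 with that pair summed. In the other settings (DESeq2, no scaling beyond the total count, at least 1 CPM in 2 libraries, counts halved, totals without ribosomal and mitochondrial RNA) 1 was called higher and 4 or 5 lower, the added gene being Gja1. Counts were also halved because 68.3% to 74.4% of counts of 1 to 20 were even, and all 5 calls held. Such an excess could arise if both mates of a read pair were counted, which the labels do not say and which was not tested. In that case the counts given here exceed the number of fragments read, and 3 counts stand for fewer than 3 fragments. With no scaling beyond the total count 38.0% of called genes were higher, against 49.3%.

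The replicate numbers are shared between the groups, but nothing says that they pair libraries, and the deviations of same-numbered libraries correlated at 0.013. With a replicate block 3305 genes were called, and 3 junction genes were higher (Cldn3, Cldn5, Cldn7) and 4 lower. Cldn20 turned to 0.14 under the block.

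The other sign changes were in members that were not called. Cldn4 was at −0.0032 in DESeq2, −0.051 with no scaling, −0.0039 with at least 1 CPM and −0.00074 without ribosomal and mitochondrial RNA, and ranged from −0.18 to 0.19 without 1 library. Without 1 library the ranges were −0.27 to 0.14 for Cldn1, −0.089 to 0.17 for Cldn12, −1.16 to 1.86 for Cldn20, −1.18 to 0.19 for Gjb5, −0.19 to 0.059 for Gjc1, −0.52 to 0.089 for Gjc3 and −1.07 to 0.35 for Gjd2. The cause was not tested. Members under about 1 CPM rest on few counts, and none of them was called in the main fit. Their SE were wide beside differences of less than 2-fold, as for Cldn8 (−0.85 ± 0.60) and Gjb5 (−0.64 ± 0.71).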
